A study of Danio rerio with 3 samples.

Results

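The differentiating neurons of the zebrafish hindbrain were compared between 44 and 24 hours post fertilisation (hpf) in single cell RNA-seq of dissected hindbrain and the tissue around it. Cells were chosen by a rule on their own transcripts. After each cell was scaled to 10000 UMIs (unique molecular identifiers, each standing for 1 captured transcript), a member had at least 8 of elavl3 plus elavl4, fewer than 8 of sox3, and no UMI of six1b, a cranial placode gene, or sox10, a neural crest gene. This defined 1307 of 3529 cells at 44 hpf, or 37.0% (exact Clopper-Pearson 95% interval 35.4% to 38.7%), and 157 of 2568 cells at 24 hpf, or 6.11% (5.22% to 7.11%), so 1464 of the 9026 cells in the series, which also holds a 16 hpf library. The condition on six1b and sox10 left out 132 cells at 44 hpf and 70 at 24 hpf that otherwise met the rule. A further 359 cells at 44 hpf and 244 at 24 hpf reached the elavl cut but had at least 8 of sox3. A cell with more UMIs is more likely to show a UMI of six1b or sox10, so these shares of members depend on depth. Because the rule used elavl3, elavl4 and sox3, their own levels are given only as a description.

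Both stages were wild-type embryos (labelled wt) of the LondonAB strain. The 44 hpf embryos were grown at 25 °C and the 24 hpf embryos at 28.5 °C, and 40 tissues were pooled at each stage, dissociated and run as 1 10x Chromium library, each in a sequencing run of its own. Stage, growth temperature and sequencing run therefore cannot be told apart in any value below, and no replicate spread exists from which to test a difference. Every comparison is a description of these libraries, and each interval covers counting error only.

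Neurons leave the ventricular zone as sox3 is switched off and the RNA-binding proteins Elavl3 and Elavl4 appear. Transcription factors inherited from the dorsoventral position of the progenitor give each neuron its class and its transmitter, while cytoskeletal, axonal and synaptic genes come on as it matures. A separate set of factors marks the time at which a neuron was born, whatever its class.

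The level of a gene is its pooled CPM, the UMIs of that gene over all members of a stage per 1000000 UMIs of those members, and a ratio is the CPM at 44 hpf over that at 24 hpf. The whole libraries held 12351301 UMIs at 44 hpf and 25733058 UMIs at 24 hpf. At 44 hpf the members held 3432425 UMIs, with a median of 2342 UMIs and 834 genes per cell. At 24 hpf they held 1350591 UMIs, with a median of 7583 UMIs and 1974 genes per cell. At this depth 96 members at 44 hpf and 0 at 24 hpf had 2 or fewer UMIs of elavl3 plus elavl4. The scaled sum had a median of 24.5 at 44 hpf and 34.2 at 24 hpf. Just inside the cut, from 8 to under 10, lay 55 members at 44 hpf and 2 at 24 hpf, and just outside it, from 6 to under 8, lay 78 cells at 44 hpf and 7 at 24 hpf. Under the sox3 cut, from 4 to under 8, lay 126 members at 44 hpf and 29 at 24 hpf, and just above it, from 8 to under 12, lay 66 and 26 cells that otherwise met the rule. The libraries shared 11 cell barcodes, and 1 of these was a member at both stages.

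The cells carried the transcripts of neurons at both stages. Stmn1b, a tubulin-binding stathmin of growing axons, had 1493 CPM at 44 hpf and 2413 CPM at 24 hpf in members, against 74.6 CPM at 44 hpf and 65.2 CPM at 24 hpf in the sox3 cells of the same libraries, the 824 cells at 44 hpf and 1045 at 24 hpf with at least 8 of sox3 and under 8 of the elavl sum. The growth cone gene gap43 stood at 769 CPM at 44 hpf and 1232 CPM at 24 hpf in members. In sox3 cells gap43 was at 19.8 CPM at 44 hpf and 6.79 CPM at 24 hpf. Shares of cells with a transcript are given at a common depth, with every cell thinned to 2000 UMIs and shallower cells left out, which kept 929 members at 44 hpf and 157 at 24 hpf. On this scale stmn1b was found in 85.2% of members at 44 hpf and 89.8% at 24 hpf, and in 7.35% and 7.72% of the cells of these stages that held no UMI of elavl3, elavl4 or sox3. Members thus carried stmn1b and gap43, neuronal transcripts that the rule did not use. Other neuronal genes outside the rule varied. Gng3 was in 76.6% of members at 44 hpf and 84.7% at 24 hpf, against 21.1% and 2.44% of the cells without elavl3, elavl4 and sox3. Snap25b was in 9.58% and 11.5% of members, against 0.490% and 0%. Cntn2 was in 0.215% and 0% of members, against 0% and 0.407%.

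Of 4599 genes with at least 20 CPM at 1 stage, 346 (7.52%) were at least 2-fold higher at 44 hpf and 885 (19.2%) were at least 2-fold lower. The median log2 ratio over these genes was -0.29. Relative to that median, 525 genes were at least 2-fold higher and 563 at least 2-fold lower, which moves the share of higher genes among those past 2-fold to 48.3%, against 28.1% before. In the 3136 genes that also reached 20 CPM in sox3 cells, the median log2 ratio was -0.19 in differentiating cells and -0.08 in sox3 cells. Ratios were also taken with other choices of member. Where this moved a gene across 2-fold, its ratio is given below, singly or as a range over alternatives. Among these were thinned members (all cells thinned to 2000 UMIs before the rule) and sox3-free members (no sox3 UMI). Others were members without other-tissue UMIs (none of 9 further genes of other tissues) and synapse-rich members (at least 20 UMIs per 10000 from synaptic genes). Ratios divided by their median are left out of these ranges. On that scale further genes crossed 2-fold, for example neurod4 (0.538), myt1a (0.570), her9 (0.568), ebf2 (0.609), meis3 (0.590) and pax2a (2.18). Genes named after their values were seen, such as hes6, igf2bp1 and mllt11, were not followed through the alternatives. The plot of all compared genes shows the broad scatter at low levels and the few genes that stand far off the diagonal.

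**Figure D1:**
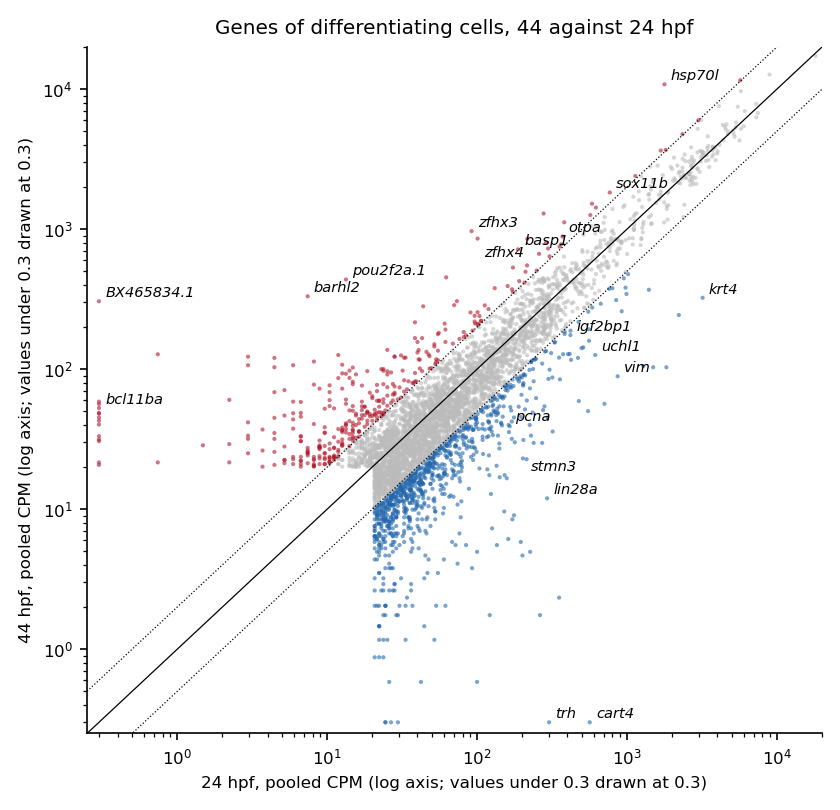
Pooled CPM of each of the 4599 genes compared in differentiating cells, with 44 hpf on the vertical and 24 hpf on the horizontal log axis. The solid line marks equal levels and the dotted lines 2-fold differences, with 346 genes at or above the upper line (red) and 885 at or below the lower (blue).

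The genes highest at 44 hpf were led by an unnamed locus and a miR9 locus, and included several transcription factors. BX465834.1, an uncharacterised gene model, had 1048 UMIs in 450 members, 305 CPM, at 44 hpf and 0 UMIs at 24 hpf, at least 138-fold higher when 24 hpf is set at a floor of 3 UMIs over the group. In sox3 cells it was higher still, 1680 CPM at 44 hpf and 12.6 CPM at 24 hpf. CU467822.1, annotated in the study as a miR9 locus, had 128 CPM at 44 hpf and 1 UMI (0.740 CPM) at 24 hpf, a ratio as counted of 172 with an interval of 30.8 to 6823, which is not on the scale of the bound for BX465834.1. CU929451.2, a further miR9 locus, had 45.2 CPM at 44 hpf and 0 UMIs at 24 hpf. MicroRNAs of the miR9 family time neurogenesis in the vertebrate brain, and both loci were higher in sox3 cells at 44 hpf (964 and 357 CPM) than in the differentiating cells.

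Zfhx3 and zfhx4, which encode large zinc finger and homeodomain proteins found in postmitotic neurons, were the most abundant of the 15 leading genes. Zfhx3 had 967 CPM at 44 hpf and 91.8 CPM at 24 hpf (ratio 10.5, 8.80 to 12.7), and zfhx4 had 856 CPM at 44 hpf and 101 CPM at 24 hpf (ratio 8.50, 7.16 to 10.2). At 2000 UMIs per cell, 67.3% of members at 44 hpf and 20.4% at 24 hpf held zfhx3, against 14.7% and 10.6% of the cells with no elavl3, elavl4 or sox3. For zfhx4 the shares were 62.2% at 44 hpf and 14.0% at 24 hpf, against 12.5% and 10.2%. Without thinning, zfhx3 was found in 72.1% of members at 44 hpf and 41.4% at 24 hpf, and zfhx4 in 67.7% and 37.6%. In sox3 cells the ratios were 1.09 for zfhx3 and 1.16 for zfhx4, so neither gene differed by 2-fold there. In cells low in both elavl and sox3 both were higher at 44 hpf. There zfhx3 had 194 CPM at 44 hpf and 46.1 CPM at 24 hpf (ratio 4.21). Zfhx4 had 194 CPM at 44 hpf and 53.7 CPM at 24 hpf (ratio 3.61).

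Pou2f2a, a POU homeodomain factor, appears in the annotation as 2 gene models between which reads of a shared sequence may be split. Model pou2f2a.1 had 437 CPM at 44 hpf and 13.3 CPM at 24 hpf (ratio 32.8, 20.7 to 55.5), and pou2f2a had 107 CPM at 44 hpf and 2.96 CPM at 24 hpf (ratio 36.0, 13.9 to 133). Zbtb20, a zinc finger repressor, had 120 CPM at 44 hpf and 4.44 CPM at 24 hpf (ratio 27.1, 12.3 to 74.2). Pou2f2a.1 was found in 44.8% of members at 44 hpf and 4.46% at 24 hpf, and zbtb20 in 19.6% and 1.27% at this depth, with no more than 4.17% of the cells without elavl3, elavl4 and sox3 holding either. Both were also higher at 44 hpf in sox3 cells. There zbtb20 had 47.9 CPM at 44 hpf and 1.204 CPM at 24 hpf (ratio 39.8). Pou2f2a.1 had 20.5 CPM at 44 hpf and 1.095 CPM at 24 hpf (ratio 18.75). Phf14, a PHD finger gene, had 452 CPM at 44 hpf and 62.2 CPM at 24 hpf (ratio 7.27, 5.83 to 9.17). In sox3 cells phf14 had 297 CPM at 44 hpf and 46.2 CPM at 24 hpf, so its difference was not limited to neurons. Cux1a (ratio 10.7), dennd4b (13.9) and si:dkeyp-115e12.6 (8.54) completed the broadly held genes of this group. In sox3 cells their ratios were 2.33, 13.5 and 5.79. Lgals1l1 (103 CPM at 44 hpf, 4.44 CPM at 24 hpf) had 96.3% of its UMIs at 44 hpf in 5 cells, and its ratio was 0.804 to 1.94 in 5 alternatives, with 0.899 without the cells above the 95th percentile of UMIs.

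**Figure D2:**
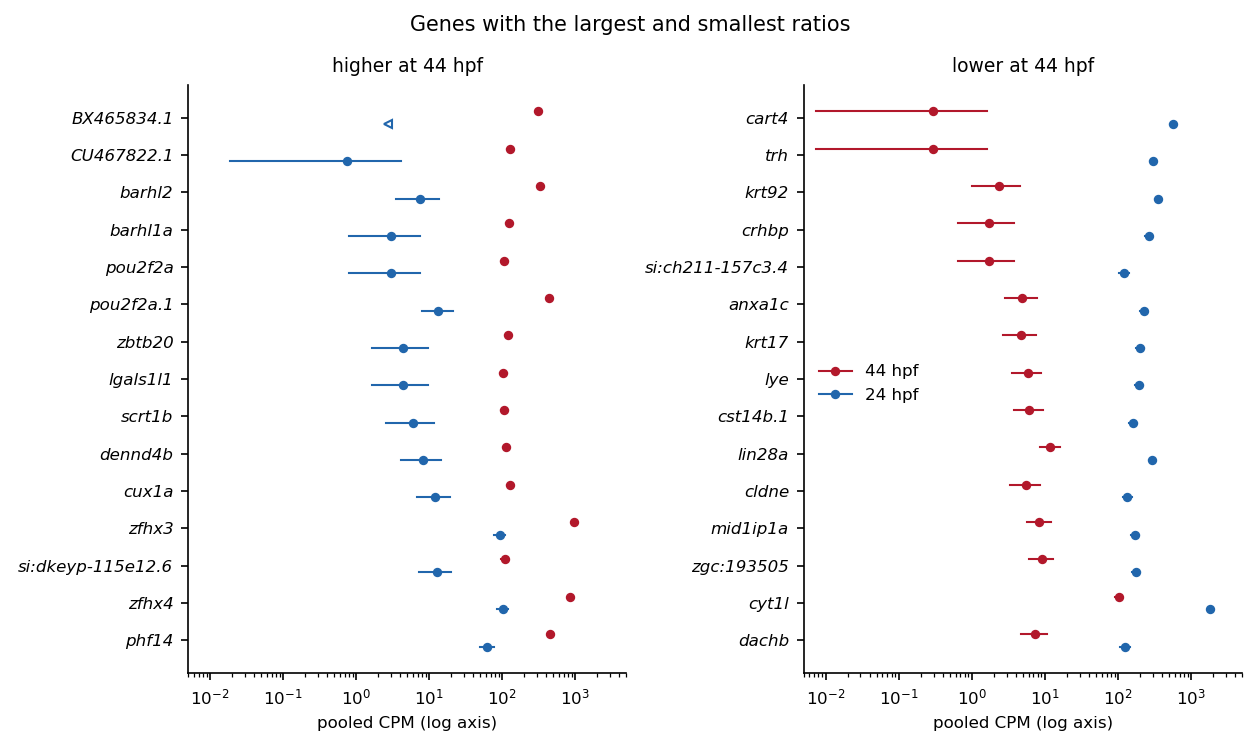
Pooled CPM (log axis) at 44 hpf (red) and 24 hpf (blue) of the 15 genes with the largest and the 15 with the smallest ratios among genes of at least 100 CPM at 1 stage, with exact Poisson 95% intervals. The open triangle is the upper limit that 0 UMIs of BX465834.1 at 24 hpf allow, and zfhx3 and zfhx4 are the most abundant genes of the left panel.

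The list of temporal and regional factors, which holds zfhx3, zfhx4, pou2f2a and zbtb20, had 32 genes compared. Of these, 12 were at least 2-fold higher and 3 at least 2-fold lower, beside 7.52% and 19.2% over all genes. This list, like every other list below, was drawn up with earlier results of these data known. Its counts are therefore a description and no independent support. The median log2 ratio of the list was 0.55, against -0.29 over all genes compared. Bcl11ba, a zinc finger factor of deep-layer cortical neurons in mouse, had 52.7 CPM in 118 cells at 44 hpf and 0 UMIs at 24 hpf, at least 23.7-fold higher. Pbx3b, a TALE homeodomain partner of Hox proteins, had 306 CPM at 44 hpf and 73.3 CPM at 24 hpf (ratio 4.17, 3.39 to 5.18). The POU class 3 genes over 50 CPM were all higher at 44 hpf. Pou3f1 had 666 CPM at 44 hpf and 259 CPM at 24 hpf, pou3f3b 131 CPM at 44 hpf and 40.0 CPM at 24 hpf, pou3f3a 78.1 CPM at 44 hpf and 14.8 CPM at 24 hpf, and pou3f2b 54.5 CPM at 44 hpf and 10.4 CPM at 24 hpf. Of these 4, only pou3f1 was over 2-fold higher in sox3 cells as well, with 942 CPM at 44 hpf and 346 CPM at 24 hpf. The nuclear receptor gene nr2f1a had 551 CPM at 44 hpf and 216 CPM at 24 hpf. Lower were zbtb16a (12.5 CPM at 44 hpf, 66.6 CPM at 24 hpf) and meis3 (119 CPM at 44 hpf, 247 CPM at 24 hpf), a Hox cofactor of the early hindbrain. The ratio of meis3 was 0.509 to 0.546 in 3 alternatives.

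The leading genes were also read within sets of members that held the same class factors, whose shares differed between the stages. Cells with lhx1a or lhx5, for example, were 43.6% of members at 44 hpf and 21.0% at 24 hpf, and cells with isl1 or isl2a were 5.38% at 44 hpf and 13.4% at 24 hpf. Members were assigned at 2000 UMIs per cell, a cell could fall into several sets, and 9 sets had at least 10 members at both stages. In every one of the 9, zfhx3, zfhx4 and pou2f2a.1 were higher at 44 hpf, with counting intervals that did not overlap. These genes were picked for their ratios over the same members, so the sets describe parts of that comparison and give no separate support. In cells with the homeodomain genes otpa or otpb, zfhx3 had 962 CPM in 253 cells at 44 hpf and 110 CPM in 31 cells at 24 hpf. In cells with tal1, gata2a or gata3, of the V2b class, it had 806 CPM in 184 cells at 44 hpf and 53.6 CPM in 35 cells at 24 hpf. In cells with phox2a or phox2bb, of branchiomotor and noradrenergic classes, it had 997 CPM in 129 cells at 44 hpf and 87.2 CPM in 32 cells at 24 hpf. Zfhx3 was lowest at 44 hpf in cells with isl1 or isl2a, a motor and sensory class, with 669 CPM there and 114 CPM in the matching cells at 24 hpf. Pou2f2a.1 ranged from 331 to 504 CPM over the 9 sets at 44 hpf and from 0 to 45.9 CPM at 24 hpf.

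**Figure D3:**
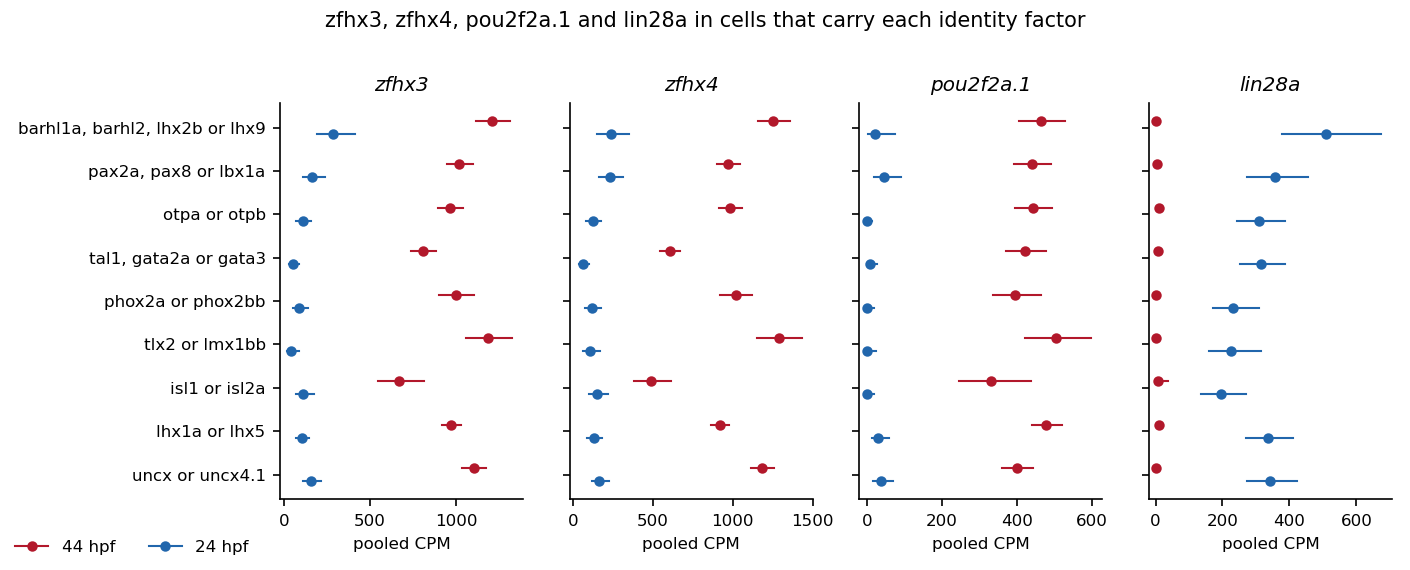
Pooled CPM with exact Poisson 95% intervals of zfhx3, zfhx4, pou2f2a.1 and lin28a in differentiating cells that hold each set of class factors, 44 hpf in red above 24 hpf in blue. The 9 sets shown have at least 10 members at both stages and overlap in their cells, and in each set the first 3 genes are higher and lin28a is lower at 44 hpf. The genes shown were picked for their ratios over all of these members.

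Lin28a, the RNA-binding protein that blocks let-7 microRNA maturation and marks early developmental time, was the leading lower gene held by many cells. It had 11.9 CPM in 41 members at 44 hpf and 293 CPM in 111 members at 24 hpf (ratio 0.0407, 0.0288 to 0.0563). At a common depth it was in 2.26% of members at 44 hpf, close to the 1.72% of cells without elavl3, elavl4 and sox3, and in 37.6% of members at 24 hpf, against 7.32%. In sox3 cells lin28a had 4.104 CPM at 44 hpf and 51.2 CPM at 24 hpf. Within the 9 class sets it ranged from 0 to 11.2 CPM at 44 hpf and from 196 to 510 CPM at 24 hpf. Igf2bp1, an mRNA-binding protein of early embryos and a let-7 target in mammals, had 175 CPM at 44 hpf and 419 CPM at 24 hpf, and igf2bp3 had 100.2 CPM at 44 hpf and 198 CPM at 24 hpf. Of the 11 heterochronic genes compared, 4 were at least 2-fold lower (lin28a, mych, mycn and igf2bp1) and 1 was higher (mycla). Over all genes, 19.2% were lower and 7.52% higher. Mycla had a ratio of 0.931 to 1.99 in 3 alternatives, the lowest in thinned members. The median log2 ratio of the list was -0.78. Mycn was at 0.620 in sox3-free members. The chromatin gene hmgn6, at 3184 CPM at 44 hpf and 2351 CPM at 24 hpf, stayed within 2-fold.

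The SoxC factors act in newborn neurons to switch on neuronal genes. All 3 compared were at least 2-fold higher at 44 hpf, beside 7.52% higher and 19.2% lower over all genes. Sox11b had 1827 CPM at 44 hpf and 767 CPM at 24 hpf (ratio 2.38, 2.23 to 2.55), and sox11a had 749 CPM at 44 hpf and 355 CPM at 24 hpf (ratio 2.11, 1.92 to 2.33). Sox12 had 70.8 CPM at 44 hpf and 5.18 CPM at 24 hpf (ratio 13.7, 6.53 to 34.3). The call was lost for sox11a in 4 alternatives (1.85 to 1.95) and for sox11b in synapse-rich members (1.96). Sox11a was also held by 39.2% of the cells without elavl3, elavl4 and sox3 at 44 hpf and 31.3% at 24 hpf, beside 58.8% of members at 44 hpf and 38.9% at 24 hpf. In sox3 cells sox11b was higher as well, with 952.5 CPM at 44 hpf and 444 CPM at 24 hpf (ratio 2.145). Sox12 had 18.8 CPM at 44 hpf and 2 UMIs (0.219 CPM) at 24 hpf there, and sox11a had a ratio of 1.19.

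Commitment factors included genes of both directions. Of 18 compared, 3 were at least 2-fold higher, 3 at least 2-fold lower and 12 in between, with a median log2 ratio of 0.19. Over all genes, 7.52% were higher and 19.2% lower. The median log2 ratio of neuronal commitment factors was -0.10 in synapse-rich and -0.11 in thinned members. In sox3 cells, where 13 of them were compared, it was 1.98. Higher were scrt1b, a Snail family repressor of newborn neurons, with 107 CPM at 44 hpf and 5.92 CPM at 24 hpf, the bHLH gene nhlh2 with 779 CPM at 44 hpf and 363 CPM at 24 hpf, and hes6, an inhibitor of Hes repressors, with 415 CPM at 44 hpf and 207 CPM at 24 hpf. Related genes scrt1a (637 CPM at 44 hpf, 380 CPM at 24 hpf) and scrt2 (225 CPM at 44 hpf, 149 CPM at 24 hpf) were under 2-fold. Nhlh2 was under 2-fold in 6 alternatives (1.46 to 1.94), scrt1a was at 2.52 in sox3-free members and 2.67 in members without other-tissue UMIs, and scrt2 was at 2.40 in the last. Lower was myt1a, a zinc finger repressor of non-neuronal genes, with 178 CPM at 44 hpf and 384 CPM at 24 hpf. Ebf2 was also lower, with 115 CPM at 44 hpf and 232 CPM at 24 hpf, although it was at 0.551 in thinned members. The other lower gene was under 50 CPM at both stages and had the smallest log2 ratio of the list, -1.19. Onecut1, a cut homeodomain gene of early-born neurons in mouse, had 210 CPM at 44 hpf and 392 CPM at 24 hpf, just short of 2-fold. At a common depth onecut1 was in 24.8% of members at 44 hpf and 47.8% at 24 hpf, and in under 1% of the cells without elavl3, elavl4 and sox3.

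Among proneural bHLH genes 4 were compared. Neurod4 had 87.4 CPM at 44 hpf and 199 CPM at 24 hpf (ratio 0.439, 0.371 to 0.519) and neurod1 had 32.6 CPM at 44 hpf and 84.4 CPM at 24 hpf, but its ratio was 0.889 in members without other-tissue UMIs. Neurog1 had 43.7 CPM at 44 hpf and 45.2 CPM at 24 hpf, and atoh1a, of the rhombic lip, had 45.7 CPM at 44 hpf and 6.66 CPM at 24 hpf. Neurog1 was at 0.319 in thinned and 0.459 in synapse-rich members. The Notch ligands dla (400 CPM at 44 hpf, 553 CPM at 24 hpf) and dlb (485 CPM at 44 hpf, 489 CPM at 24 hpf) were within 2-fold, as were all 4 ligands compared. In synapse-rich members both were past 2-fold lower, dla with 93.3 CPM at 44 hpf and 448 CPM at 24 hpf (ratio 0.208) and dlb with 195 CPM at 44 hpf and 422 CPM at 24 hpf (ratio 0.462), and in thinned members dla was at 0.490. Of 11 Notch receptors and targets, her4.4 was higher (379 CPM at 44 hpf, 131 CPM at 24 hpf). Her4.3 (87.7 CPM at 44 hpf, 183 CPM at 24 hpf) and her9 (77.2 CPM at 44 hpf, 167 CPM at 24 hpf) were lower. These counts are near the 7.52% higher and 19.2% lower over all genes. The her4 genes are a tandem family of near-identical copies, so the split between her4.3 and her4.4 is uncertain. Her4.3 was at 0.549 to 1.34 in 3 alternatives, the highest in sox3-free members. Her4.4 was at 1.98 in thinned and 1.36 in synapse-rich members.

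**Figure D4:**
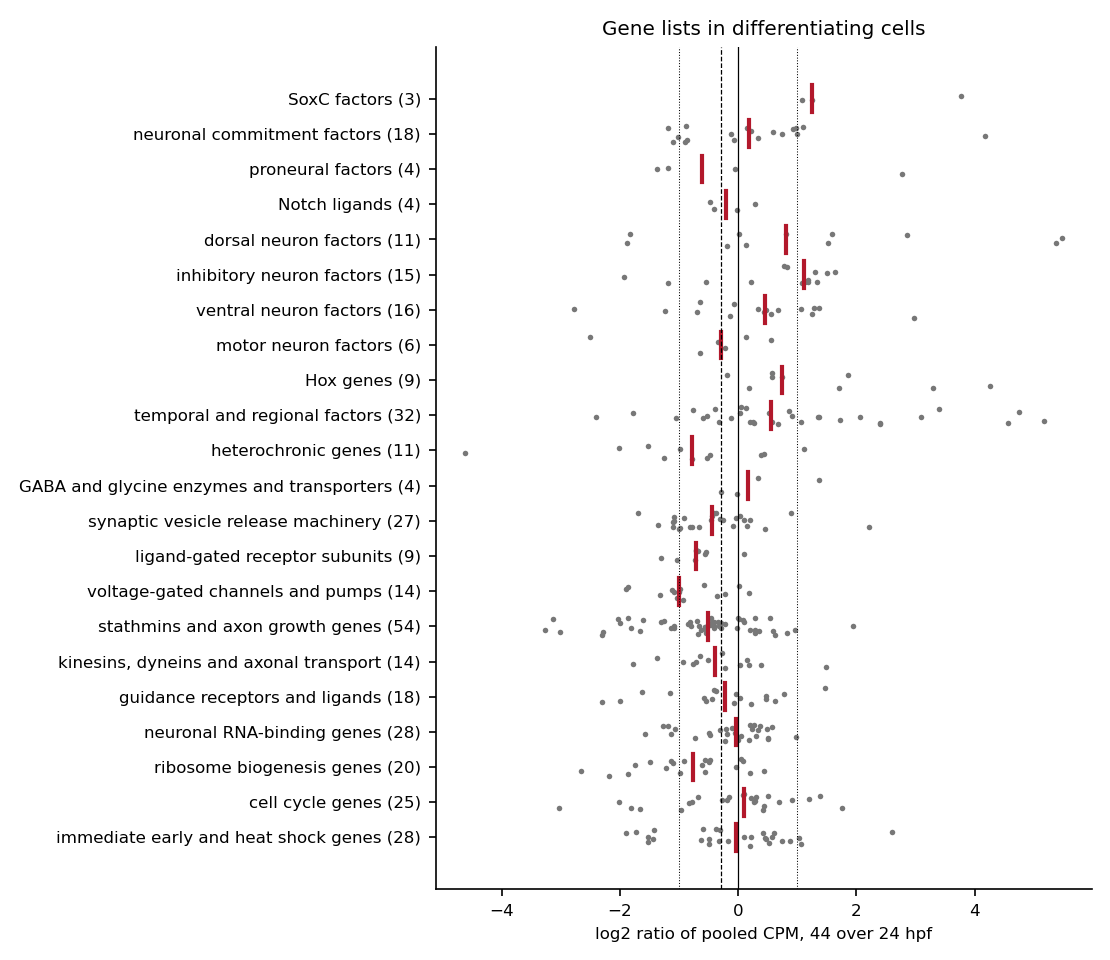
Log2 ratios (44 over 24 hpf) of the compared genes of 22 lists in differentiating cells, 1 point per gene, with the list median in red and the number compared in brackets. Dotted lines mark 2-fold and the dashed line the median of -0.29 over all 4599 genes, and the medians of the dorsal, inhibitory, ventral, Hox and temporal lists lie to its right while those of the axon, channel and ribosome biogenesis lists lie to its left.

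Factors of dorsal classes ranged widely. Barhl2, a homeodomain factor of the dA1 neurons that arise from the rhombic lip, had 331 CPM in 279 members at 44 hpf and 7.404 CPM in 4 members at 24 hpf (ratio 44.7, 24.2 to 93.5). Its partner barhl1a had 123 CPM at 44 hpf and 2.96 CPM at 24 hpf, and lhx9, expressed in the same class, had 78.4 CPM at 44 hpf and 27.4 CPM at 24 hpf. At a common depth barhl2 was in 14.6% of members at 44 hpf (12.4% to 17.1%) and 1.27% at 24 hpf (0.155% to 4.53%). Pou4f1 (Brn3a), of early sensory and dorsal neurons, went the other way, with 39.6 CPM at 44 hpf and 147 CPM at 24 hpf, and so did pou4f2 with 32.6 CPM at 44 hpf and 116 CPM at 24 hpf. Of the 11 dorsal factors 5 were higher, 2 lower and 4 within 2-fold, beside 7.52% higher and 19.2% lower over all genes. Their median log2 ratio was 0.81. That median was 0.24 in synapse-rich members and 0.29 in members without other-tissue UMIs, and lhx9 was at 1.76 in thinned members. A difference in pooled CPM cannot tell more cells of a class from more transcript per cell.

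Factors of the inhibitory neuron list were higher in 9 of 15 genes compared and lower in 2, beside 7.52% and 19.2% over all genes. Their median log2 ratio was 1.11. The list is not limited to inhibitory classes. The study marks developing noradrenergic neurons by tfap2a and reports lhx1a, lhx5 and lbx2 in them as well. The LIM homeodomain gene lhx1a had 255 CPM at 44 hpf and 101 CPM at 24 hpf (ratio 2.53, 2.11 to 3.06) and lhx5 had 164 CPM at 44 hpf and 76.3 CPM at 24 hpf. Lhx1a was held, at 2000 UMIs per cell, by 31.2% of members at 44 hpf and 14.6% at 24 hpf. Without thinning these shares were 32.4% and 29.9%. Pax8 had 62.1 CPM at 44 hpf and 20.0 CPM at 24 hpf, tfap2a 184 CPM at 44 hpf and 81.5 CPM at 24 hpf, and tfap2b 135 CPM at 44 hpf and 54.8 CPM at 24 hpf. Pax2a (238 CPM at 44 hpf, 134 CPM at 24 hpf) fell short of 2-fold. The spalt genes were lower, sall3b with 20.7 CPM at 44 hpf and 78.5 CPM at 24 hpf and sall3a with 37.9 CPM at 44 hpf and 85.9 CPM at 24 hpf. Gad1b, which makes GABA, had 64.7 CPM at 44 hpf and 25.2 CPM at 24 hpf (ratio 2.57, 1.78 to 3.803), whereas gad2 (81.3 CPM at 44 hpf, 64.4 CPM at 24 hpf) and the vesicular transporter slc32a1 (132 CPM at 44 hpf, 133 CPM at 24 hpf) were within 2-fold. Several of these lay near 2-fold. Lhx5 was under it in 5 alternatives (lowest 1.84), tfap2a in 3 (1.47 to 1.97), tfap2b in members without other-tissue UMIs (1.41), sall3a in 3 alternatives (0.529 to 0.729) and gad1b when single cells were averaged (1.95), while pax2a reached 2.03 in thinned and 2.08 in sox3-free members. The median of the inhibitory list was 0.55 in members without other-tissue UMIs.

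The ventral and motor lists had smaller median log2 ratios than the dorsal and inhibitory lists. Otpa had 886 CPM at 44 hpf and 372 CPM at 24 hpf (ratio 2.38, 2.17 to 2.62), and otpb had 688 CPM at 44 hpf and 505 CPM at 24 hpf. Uncx and uncx4.1, paired-type homeodomain genes, had 220 and 124 CPM at 44 hpf, against 106 and 48.1 CPM at 24 hpf. Tal1 (226 CPM at 44 hpf, 247 CPM at 24 hpf), which drives the V2b class, did not differ by 2-fold. Vsx1 (64.1 CPM at 44 hpf, 40.0 CPM at 24 hpf) had a ratio of 1.60 that crossed 2-fold both ways, with 0.487 in synapse-rich, 2.29 in thinned and 5.96 in sox3-free members. Otpb was at 2.49 and phox2a at 0.482 in members without other-tissue UMIs, and uncx was under 2-fold in 5 alternatives (1.52 to 1.99) and uncx4.1 in synapse-rich members (1.99). Of 16 ventral factors 5 were higher, 2 lower and 9 in between, beside 7.52% higher and 19.2% lower over all genes. Their median log2 ratio was 0.46, against -0.29 over all genes. Of 6 motor neuron factors, isl2b alone passed 2-fold, with 12.2 CPM at 44 hpf and 69.6 CPM at 24 hpf. Phox2bb had 293 CPM at 44 hpf and 198 CPM at 24 hpf, phox2a 203 CPM at 44 hpf and 236 CPM at 24 hpf, and isl1 80.7 CPM at 44 hpf and 74.0 CPM at 24 hpf. Isl1 was held, at 2000 UMIs per cell, by 4.74% of members at 44 hpf (3.46% to 6.31%) and 10.8% at 24 hpf (6.44% to 16.8%), against 0.735% and 2.03% of the cells without elavl3, elavl4 and sox3. Its ratio was 1.09 over all members and 0.680 in thinned members. The median log2 ratio of the 6 motor neuron factors was -0.28, and -0.80 in members without other-tissue UMIs.

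**Figure D5:**
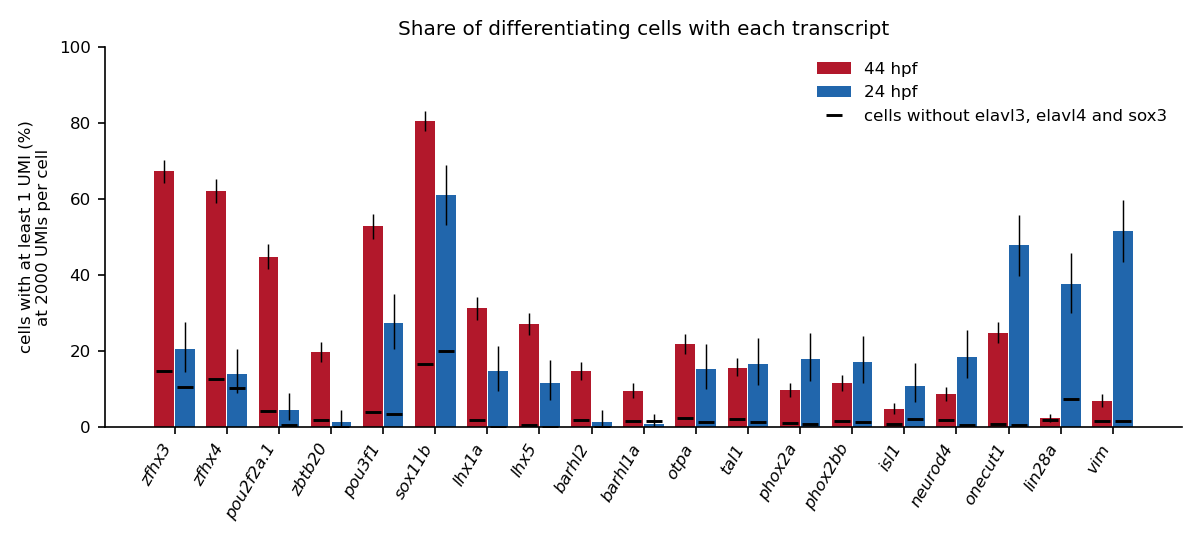
Share of differentiating cells with at least 1 UMI of each gene after thinning every cell to 2000 UMIs, 929 members at 44 hpf (red, left) and 157 at 24 hpf (blue, right), with exact Clopper-Pearson 95% intervals. Black ticks are the shares in the cells of each stage with no UMI of elavl3, elavl4 or sox3, and zfhx3, zfhx4 and pou2f2a.1 are held by larger shares at 44 hpf while onecut1, lin28a and vim are held by smaller shares.

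Hox genes, which give hindbrain neurons their anterior to posterior address, were higher in 4 of 9 compared and lower in 0. Over all genes, 7.52% were higher and 19.2% lower. The median log2 ratio of the Hox genes was 0.75. Hoxb5a had 42.8 CPM at 44 hpf and 0 UMIs at 24 hpf, at least 19.3-fold higher, hoxb5b 58.6 CPM at 44 hpf and 5.92 CPM at 24 hpf, and hoxa3a 121 CPM at 44 hpf and 33.3 CPM at 24 hpf. Hoxb2a, expressed further anterior, had 114 CPM at 44 hpf and 130.3 CPM at 24 hpf. In sox3 cells the 6 Hox genes compared had a median log2 ratio of 0.68.

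Of 54 genes of axon growth and the neuronal cytoskeleton, 1 was higher, 16 were lower and 37 lay within 2-fold. Over all genes, 7.52% were higher and 19.2% lower. The median log2 ratio of the list was -0.50, against -0.29 over all genes. In sox3 cells, where 30 of these genes were compared, it was 0.65. Stmn3, a stathmin, had 23.0 CPM at 44 hpf and 202 CPM at 24 hpf (ratio 0.114, 0.0875 to 0.147). The microtubule-associated map1ab had 59.1 CPM at 44 hpf and 477 CPM at 24 hpf, and uchl1, a neuronal ubiquitin hydrolase, had 126 CPM at 44 hpf and 614 CPM at 24 hpf. Mllt11, an early neuronal gene, had 478 CPM at 44 hpf and 1016 CPM at 24 hpf. The exception was basp1, a growth cone membrane protein, with 717 CPM at 44 hpf and 187 CPM at 24 hpf (ratio 3.83, 3.36 to 4.37). Neurofilament gene nefma (12.8 CPM at 44 hpf, 124 CPM at 24 hpf) had 96.4% of its 24 hpf UMIs in 5 cells, and its ratio was 0.688 to 1.36 in 3 alternatives, the highest in sox3-free members. Vim, an intermediate filament gene of radial glia that is also found in early zebrafish neurons, had 88.9 CPM at 44 hpf and 866 CPM at 24 hpf (ratio 0.103, 0.0901 to 0.116), and at a common depth was in 6.78% of members at 44 hpf and 51.6% at 24 hpf. In sox3 cells vim was low, 11.6 CPM at 44 hpf and 23.4 CPM at 24 hpf.

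Of 27 genes of the synaptic vesicle machinery 1 was higher and 6 lower, with a median log2 ratio of -0.45. These counts are near the 7.52% higher and 19.2% lower over all genes. In sox3 cells only 4 of the genes were compared, with a median of 1.41. Snap25a, the vesicle fusion protein, had 494 CPM at 44 hpf and 981 CPM at 24 hpf, just under 2-fold, while the paralogue snap25b had 99.3 CPM at 44 hpf and 53.3 CPM at 24 hpf. Complexin genes diverged, cplx2l with 382 CPM at 44 hpf and 977 CPM at 24 hpf, cplx2 with 156 CPM at 44 hpf and 330.2 CPM at 24 hpf, and cplx1 with 20.7 CPM at 44 hpf and 4.44 CPM at 24 hpf. Cplx2l was at 0.531 in thinned members, cplx2 at 0.505 to 0.578 in 3 alternatives, and snap25b at 2.38 in synapse-rich members. Of 14 voltage-gated channels and pumps 0 were higher and 6 lower, beside the same shares over all genes, with a median log2 ratio of -0.995. The sodium pump subunit atp1a3a had 167 CPM at 44 hpf and 319 CPM at 24 hpf. Slc17a6b, the vesicular glutamate transporter, had 38.5 CPM at 44 hpf and 83.7 CPM at 24 hpf (ratio 0.460, 0.355 to 0.596), and its ratio was 0.609 in thinned and 0.507 in synapse-rich members. The motor kif5c (20.7 CPM at 44 hpf, 71.1 CPM at 24 hpf) was lower among 14 transport genes and dync1li1, a dynein subunit, was higher (145 CPM at 44 hpf, 51.8 CPM at 24 hpf; 1.93 in sox3-free members).

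The members at 44 hpf included more cells with little synaptic transcript: the summed level of the 45 synaptic genes found in the tables had a median of 34.6 per 10000 UMIs at 44 hpf and 63.6 at 24 hpf, and 404 of 1307 members at 44 hpf and 16 of 157 at 24 hpf were below 20. In the 903 members at 44 hpf and 141 at 24 hpf that reached 20, chosen as a group after the data were seen, the genes compared above had these levels. Zfhx3 had 971 CPM at 44 hpf and 89.9 CPM at 24 hpf (ratio 10.8), lin28a 16.3 CPM at 44 hpf and 312 CPM at 24 hpf (ratio 0.0523), basp1 1002 CPM at 44 hpf and 213 CPM at 24 hpf (ratio 4.71), and map1ab 86.0 CPM at 44 hpf and 546 CPM at 24 hpf (ratio 0.158). There the median log2 ratio of the axon growth list was -0.46 and that of the channel list -0.66, against -0.25 over all genes compared. Below 20, with only 16 members at 24 hpf, the axon growth list was at 0.58, against -0.23 over all genes. The channel list was at -2.69 below 20, a value set by the floor of 3 UMIs. In the members that reached 20 other lists moved as well. The synaptic list, on whose sum these members were chosen, was at -0.09, above all genes. Ebf2 and neurod4, by contrast, were further apart in the members that reached 20, with 41.7 and 23.2 CPM at 44 hpf, against 227 and 136 CPM at 24 hpf.

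Some of the smallest ratios were those of peptide genes held by very few cells at 24 hpf. Cart4, a cocaine- and amphetamine-regulated transcript peptide, had 1 UMI at 44 hpf (0.291 CPM) and 762 UMIs (564 CPM) in 10 members at 24 hpf, where 5 cells held 99.3% of them. Trh, thyrotropin-releasing hormone, had 1 UMI at 44 hpf and 408 UMIs (302 CPM) in 7 members at 24 hpf. At 24 hpf 3 members had at least 10 UMIs of cart4, and these were the same 3 that had at least 10 of trh. Crhbp, which binds corticotropin-releasing hormone, had 6 UMIs at 44 hpf (1.75 CPM) and 355 UMIs (263 CPM) at 24 hpf, with at least 10 UMIs in 4 members, none of them shared with cart4. Its ratio was 0.413 once cells beyond 3 median absolute deviations of their library were left out. All 4 of these crhbp cells also held at least 10 UMIs of npb, neuropeptide B, which had 141 CPM at 44 hpf and 498 CPM at 24 hpf, and 3 of them held at least 10 of pcp4a, a calmodulin-binding protein with 103 CPM at 44 hpf and 1495 CPM at 24 hpf. Dachb, a nuclear cofactor of the Dachshund family, was lower more broadly, with 7.28 CPM in 22 members at 44 hpf and 126 CPM in 71 members at 24 hpf.

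Ribosome biogenesis genes were higher in 0 and lower in 8 of 20 compared, with a median log2 ratio of -0.77, and in sox3 cells the median of the same 20 was -0.87. The nucleolar chaperone npm1a had 116 CPM at 44 hpf and 424 CPM at 24 hpf, and nhp2, of snoRNP particles, had 14.0 CPM at 44 hpf and 88.1 CPM at 24 hpf. Of the cytosolic ribosomal protein genes 0 of 79 passed 2-fold, lowest to highest log2 ratio -0.49 to 0.43, with a median of -0.02. Of 25 cell cycle genes 3 were higher and 4 lower, with a median log2 ratio of 0.09, but one of -0.72 in synapse-rich members. Over all genes compared, 7.52% were higher and 19.2% lower. In sox3 cells the median of the same 25 was -0.92. Pcna, the replication clamp, had 39.9 CPM at 44 hpf and 162 CPM at 24 hpf, mki67 had 35.8 CPM at 44 hpf and 61.4 CPM at 24 hpf, and the chromatin gene hmgb2b had 1426 CPM at 44 hpf and 620 CPM at 24 hpf. The related hmgb1a (1119 CPM at 44 hpf, 381 CPM at 24 hpf) and hmgb1b (1520 CPM at 44 hpf, 584 CPM at 24 hpf) were likewise higher. Both belong to a list drawn up as cold-responsive RNA-binding genes. Of the 7 compared there, 2 were higher and 0 lower, with a median log2 ratio of 0.49. A part of growth temperature in these values was not tested. Mki67 was past 2-fold lower in 5 alternatives (0.239 to 0.490), and hmgb2b was at 1.49 in thinned members.

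Hsp70l, a heat shock protein gene, had 10820 CPM at 44 hpf and 1778 CPM at 24 hpf in differentiating cells, 7936 CPM at 44 hpf and 1900 CPM at 24 hpf in sox3 cells, and 8120 CPM at 44 hpf and 1736 CPM at 24 hpf in cells low in both elavl and sox3. Among immediate early genes 3 were lower at 44 hpf, with fosab at 193 CPM at 44 hpf and 555 CPM at 24 hpf, egr4 at 50.7 CPM at 44 hpf and 169 CPM at 24 hpf and atf3 at 311 CPM at 44 hpf and 847 CPM at 24 hpf. The hsp70 genes share long stretches of sequence, and reads may be split among them. Over the 28 immediate early and heat shock genes compared 3 were higher and 6 lower, with a median log2 ratio of -0.04. These counts are near the 7.52% higher and 19.2% lower over all genes. Of the transcripts of the mitochondrial genome, 1 of 11 passed 2-fold, and the median log2 ratio was 0.60.

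Paralogues with a shared name went opposite ways, each by at least 2-fold, in 4 pairs of the lists. The number of pairs looked at was not counted, so these 4 cannot be read as a share. Alcama, an adhesion molecule of growing axons, had 254 CPM at 44 hpf and 90.3 CPM at 24 hpf, while alcamb had 35.5 CPM at 44 hpf and 163 CPM at 24 hpf. At 24 hpf 5 cells held 59.0% of the alcama UMIs, and its ratio was 0.997 when cells were thinned before the rule. Mdkb, a midkine growth factor, had 372 CPM at 44 hpf and 171 CPM at 24 hpf, and mdka had 59.7 CPM at 44 hpf and 215 CPM at 24 hpf, although mdkb was at 1.91 in members without other-tissue UMIs. The remaining pairs were cplx1 with cplx2 and her4.4 with her4.3, given above, where cplx1 rests on 4.44 CPM at 24 hpf. Among guidance genes plxna1a, a semaphorin receptor, was higher (59.4 CPM at 44 hpf, 21.5 CPM at 24 hpf). Epha7, an ephrin receptor, was lower (30.0 CPM at 44 hpf, 93.3 CPM at 24 hpf). Of 18 guidance genes 1 was higher and 4 were lower, beside 7.52% higher and 19.2% lower over all genes.

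Markers of other tissues were present among the members, and their part in the results above was not tested. Over all genes compared, 7.52% were higher and 19.2% lower, and each list here stands beside these shares. Of 21 epidermis genes compared, 1 was higher and 18 lower, with a median log2 ratio of -3.46. They summed to 1351 CPM at 44 hpf and 11920 CPM at 24 hpf. At 24 hpf 2 members, with 25409 and 42690 UMIs in all, took 15.4% and 25.2% of their UMIs from 15 epidermis genes, and 5 members held 95.5% of the krt4 UMIs. Without the 3 members at 44 hpf and 2 at 24 hpf above 1%, krt4 had 70.21 CPM at 44 hpf and 165 CPM at 24 hpf, the list had 0 genes higher and 7 lower, and its median log2 ratio was -0.63. When cells were thinned before the rule the median log2 ratio of epidermis genes was 0.0946. Of the 15 genes with the smallest ratios, 5 remained among the 15 smallest without these cells (cart4, trh, crhbp, lin28a and dachb), and so did 14 of the 15 with the largest. Blood and vessel genes, 5 of 5 higher (2 of them as bounds at the floor of 3 UMIs), summed to 229 CPM at 44 hpf and 51.1 CPM at 24 hpf. The globin hbae3 had 48.6 CPM at 44 hpf and 6.66 CPM at 24 hpf, beside 4541 CPM at 44 hpf and 459 CPM at 24 hpf in the cells low in both elavl and sox3. Head mesenchyme genes, 4 of 5 higher, summed to 299 CPM at 44 hpf and 99.2 CPM at 24 hpf. The median log2 ratio of head mesenchyme and cartilage genes was 3.34, but -0.0729 without cells that held a UMI of 9 further genes of other tissues, where col1a2 was at 1.71, and col1a2 had 86.5% of its 44 hpf UMIs in 5 cells. Muscle genes summed to 17.2 CPM at 44 hpf and 18.5 CPM at 24 hpf, with 0 genes at 20 CPM. The cranial ganglion list, 9 genes compared, had 3 higher and 4 lower, the lower including isl2b, pou4f1 and neurod1 (0.889 in members without other-tissue UMIs), and their part in the values of these genes was not tested.

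Beside the sox3 cells of the same libraries, some of these differences recurred. Of the 3136 genes compared in both kinds of cell, 253 (8.07%) were at least 2-fold higher and 255 (8.13%) at least 2-fold lower in sox3 cells. Of the 201 genes at least 2-fold higher at 44 hpf in differentiating cells that also reached 20 CPM in sox3 cells, 112 (55.7%) were at least 2-fold higher there too, 88 lay within 2-fold and 1 was at least 2-fold lower. Of the 426 lower genes, 155 (36.4%) were lower in sox3 cells, 260 lay within 2-fold and 11 were at least 2-fold higher.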

How the data were processed

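The authors made 1 10x Chromium library per stage, and the submitters' processing notes name Cell Ranger and GRCz10. The deposited tables hold raw UMI counts for 27282 genes, whole numbers with no normalisation by the authors, in the cells they deposited. A list of the sequencing run folders was used only to learn that the libraries came from different runs. Members and the 40 gene lists (964 of 1016 listed genes were in the tables) were chosen with earlier results of these data known. Counts were summed over members and divided by their total. A gene was compared with at least 20 CPM at 1 stage and called at 2-fold. Named genes were the 15 largest and smallest ratios among genes of at least 100 CPM outside mitochondrial, ribosomal protein, haemoglobin and rule genes, up to 4 genes per list with at least 50 CPM, genes the study names, and paralogue pairs in opposite directions. Other genes were named after their values were seen. Intervals are exact at 95% (Poisson for CPM, conditional binomial for ratios, Clopper-Pearson for shares). With 1 library per stage no test was made. UMIs, not reads, were counted, yet cells of 1 library are not replicates. Shares of cells used each cell thinned to 2000 UMIs, which left out 378 members at 44 hpf and 0 at 24 hpf. The comparison cells for background, with no UMI of elavl3, elavl4 or sox3, numbered 408 at 44 hpf and 246 at 24 hpf after thinning. Before thinning, all such cells of the library, shallower ones included, had a median of 4361 UMIs at 44 hpf and 8232 UMIs at 24 hpf. No doublet caller was run, and cells above the 95th percentile of UMIs were left out in an alternative. Python 3.11.15, numpy 2.4.6, scipy 1.17.1, pandas 2.3.3 and matplotlib 3.10.9 were used, and the code was tested on simulated counts.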

Additional observations from a re-analysis of the deposited data

Results flagged for a closer look

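In 12 genes the direction in differentiating cells was opposite to that in sox3 cells of the same libraries, with at least 2-fold in each, and with 1 library per stage the difference was not tested. Col11a1a was the only one higher in differentiating cells (ratio 3.70; 27.4 CPM at 44 hpf, 7.404 CPM at 24 hpf) and lower in sox3 cells (0.477). Lower in differentiating cells and higher in sox3 cells were the neuronal genes ebf2 (0.497 in differentiating cells, 2.17 in sox3 cells), mllt11 (0.470, 2.52), myt1a (0.465, 2.42) and npb (0.284, 2.33), the adhesion gene chl1b (0.449, 2.095), the actin-binding gene cotl1 (0.418, 2.69), and the spalt genes sall3b (0.264, 2.29) and sall1a (0.247, 2.39). The same held for si:ch211-152f23.5 (0.157, 2.84) and si:ch211-195b11.3 (0.112, 2.08). Icn, an epidermis gene, had a ratio of 0.153 in differentiating cells and 9.39 in sox3 cells. Without the members rich in epidermis genes its ratio was 1.46.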

How the results depend on the processing

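Of 13 alternatives, 2 of them chosen after the data were seen, 11 gave gene ratios. Of the 113 named genes that differed by at least 2-fold, 53 fell under 2-fold in at least 1 of these 11. Direction changed in 12, counting atp1b4, which crossed only through the floor of 3 UMIs. The 12 also hold anxa1c and alcama, which moved only to even levels (1.00 and 0.997). In addition, 14 of 39 list medians moved by 0.5 or more on the log2 scale in at least 1 alternative. Counting only members with no sox3 UMI left 66 cells at 24 hpf, and leaving out cells with a UMI of 9 further genes of other tissues left 93. Dividing ratios by their median gave 525 genes higher and 563 lower. A minimum of 10 CPM gave 1534 lower, and one of 50 CPM gave 182 higher and 391 lower. Thinning to 2000 UMIs before the rule reversed lye (1.27), zgc:193505 (1.16), cyt1l (3.6), mycla (0.931) and the median log2 ratio of epidermis genes (0.0946). It brought anxa1c (1.00), krt17 (1.00) and alcama (0.997) to even levels. A minimum of 16 for the elavl sum reversed krt17 (1.13), zgc:193505 (1.19), cyt1l (1.79) and pfn1 (0.891). Without cells beyond 3 median absolute deviations, lgals1l1 (0.804), cyt1l (1.64) and pfn1 (0.689) reversed, and without those above the 95th percentile of UMIs lgals1l1 (0.899), cyt1l (1.64) and pfn1 (0.809). With no sox3 UMI, cyt1l (1.65), her4.3 (1.34) and nefma (1.36) reversed. With no UMI of the 9 genes nefma (1.19) and pfn1 (0.889) reversed. So did the median log2 ratios of neural crest and glial lineage genes (-0.26) and of head mesenchyme and cartilage genes (-0.0729). Atp1b4 had 0 UMIs in members at 24 hpf, where the floor of 3 UMIs gave a bound of 2.89. Its ratio was 0.667 when thinned, 0.331 with no sox3 UMI and 0.856 with no UMI of the 9 genes. These values rest on the same floor and show no reversal. Pfn1, at a ratio of 2.82 among all members, also reversed without epidermis-rich members (0.820) and at 20 or more synaptic UMIs per 10000 (0.685). The cause was not tested. No paired analysis was possible because each stage is 1 library with no replicate numbers. The number of cells limits the 24 hpf values, with 157 members, where the exact upper limit for a gene at 0 UMIs such as BX465834.1 is 2.73 CPM.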

Other observations

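Of the lists given here, that of neural crest and glial lineage genes had 3 of 4 genes higher. The others had most of their genes within 2-fold. Over all 4599 genes compared, 7.52% were at least 2-fold higher and 19.2% at least 2-fold lower. Of 28 neuronal RNA-binding genes 0 were at least 2-fold higher at 44 hpf and 5 at least 2-fold lower, with a median log2 ratio of -0.03. Of 12 cadherins and protocadherins 1 was higher and 2 were lower (median -0.11), and cdh6, a classical cadherin, had 27.1 CPM at 44 hpf and 96.99 CPM at 24 hpf. The ratio of cdh6 was 0.622 in members without other-tissue UMIs. Of 9 axonal immunoglobulin adhesion molecules 1 was higher and 3 were lower (median -0.59). Of 9 ligand-gated receptor subunits 0 were higher and 2 were lower (median -0.71), and the glycine receptor subunit glrbb had 33.2 CPM at 44 hpf and 68.1 CPM at 24 hpf. The ratio of glrbb was 0.537 to 0.629 in 3 alternatives.

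Of 16 glycolytic enzymes 1 was higher and 3 were lower (median log2 ratio -0.28), and aldocb, an aldolase, had 257 CPM at 44 hpf and 552 CPM at 24 hpf. The ratio of aldocb was 0.572 in synapse-rich members. Of 74 nuclear genes of oxidative phosphorylation 0 were higher and 2 were lower (median 0.04). The brain creatine kinase ckbb, at 1393 CPM at 44 hpf and 799.6 CPM at 24 hpf, was under 2-fold. Its ratio was 2.39 once cells beyond 3 median absolute deviations were left out. Of 21 progenitor and radial glia genes 2 were higher, 8 were lower and 11 lay in between (median -0.44). Cldn5a, a claudin of the early neural tube, had 3.5 CPM at 44 hpf and 54.8 CPM at 24 hpf, and fabp7a, a fatty acid binding protein of radial glia, had 179 CPM at 44 hpf and 251 CPM at 24 hpf. Fstl1a, a follistatin-like secreted protein, had 14.9 CPM at 44 hpf and 57.0 CPM at 24 hpf. At 2000 UMIs per cell it was held by 2.58% of differentiating cells at 44 hpf and 6.37% at 24 hpf, below the 8.82% and 13.0% of cells without elavl3, elavl4 and sox3. Of 4 neural crest and glial lineage genes 3 were higher (median 1.24), among them foxd3, tfap2a and tfap2b, which neurons also express, and the median was -0.26 without cells that held a UMI of 9 further genes of other tissues.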
